A study of Mus musculus with 5 samples.

Results

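The clustered protocadherins were described in mouse neural stem cells (NSCs) and STO cells. Members were taken as the RefSeq transcripts whose symbol begins with Pcdha, Pcdhb or Pcdhg and whose locus lies on chromosome 18, and each isoform was kept apart. There were 57 such isoforms among the 40201 transcripts listed for each sample. The alpha cluster held 14 of them, the beta cluster 22 and the gamma cluster 21. In mm9 coordinates the alpha isoforms spanned chr18:37089939-37347314, the beta isoforms chr18:37424652-37681073 and the gamma isoforms chr18:37821599-38001526.

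Clustered protocadherins are cadherin-like adhesion proteins of the cell surface, known above all from the nervous system, where different neurons carry different combinations of isoforms and use them to tell their own branches from those of other cells. In the alpha and gamma clusters each isoform has its own first exon with its own promoter, which is spliced to constant exons shared by the whole cluster, so the isoforms differ in the outer part of the protein and have the same cytoplasmic end. The beta genes have no constant exons, and each encodes a whole protein. Promoter choice is known to involve CTCF, cohesin and DNA methylation. The C-type isoforms at the 3′ ends of the alpha and gamma clusters are regulated apart from the other isoforms.

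RNA-seq values were available here for NSCs (n = 2) and STO cells (n = 3). The NSCs were primary cells of passages 5 to 8 from the cortex of C57BL/6 embryos at E12.5, grown on poly-l-ornithine and laminin with EGF and bFGF. STO is an established line of mouse embryonic fibroblasts, labelled C57BL/6, used here beyond passage 30 in serum-containing DMEM. The paper, however, describes STO as a line from SIM mouse embryos with resistance to thioguanine and ouabain. Whether the 2 groups share a strain is therefore unclear. No treatment or engineered allele was named for either group. The labels do not say whether the samples of a group came from separate cultures, so the p-values measure only the spread between these samples, which may be technical. Cell type, any strain difference, culture medium and primary or established state cannot be told apart in this design.

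Values are FPKM, in which fragments are divided by transcript length and by sequencing depth, and so can be compared between isoforms of different length. The deposited confidence intervals implied 20587283 and 22271895 fragments in NSCs and 15223341, 17078753 and 21952753 in STO cells. Wide intervals lower such sums, so they are not the library depths. Of the NSC markers, Sox2 was at 308.2 and 275.8 FPKM in NSCs, Olig2 at 499.3 and 493.5, and Pax6 at 5.04 and 5.22, and these genes were listed at 0 in all 3 STO samples. Nes was at 176.5 and 168.9 FPKM in NSCs and at 0.0380 to 0.0724 in STO cells. The 6 fibroblast markers (Col1a1, Col1a2, Col3a1, Fn1, Thy1 and Pdgfrb) summed to 5.05 and 5.12 FPKM in NSCs and to 1352 to 1462 in STO cells, and Col3a1 was listed at 0 in both NSC samples.

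Most of the isoforms were listed at 0. All 14 alpha isoforms, among them the C-type Pcdhac1 and Pcdhac2, had an FPKM of 0 in all 5 samples. The same held for 20 of the 21 gamma isoforms, namely all 18 variable ones and the C-type Pcdhgc4 and Pcdhgc5. Of all transcripts in the files, 39.1% were listed at 0 in all 5 samples, against 34 of the 57 members. An exact 0 can also be a failed estimate: Rps27, a ribosomal protein gene, was likewise listed at 0 in every sample, although every member had the status OK. A 0 here was therefore read only as a listed value. In the mm9 annotation, 9 gamma isoforms could be matched, all had 4 exons, and 41.7% to 45.2% of their bases lay in exons shared with another isoform. For the 9 alpha isoforms that could be matched, also of 4 exons, this share ran from 15.6% to 68.5%. The readthrough transcripts Gm37013, Gm38666 and Gm38667, which reach from the alpha into the gamma cluster, and 1 transcript without a symbol in the gamma cluster were listed at 0 as well.

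**Figure D1:**
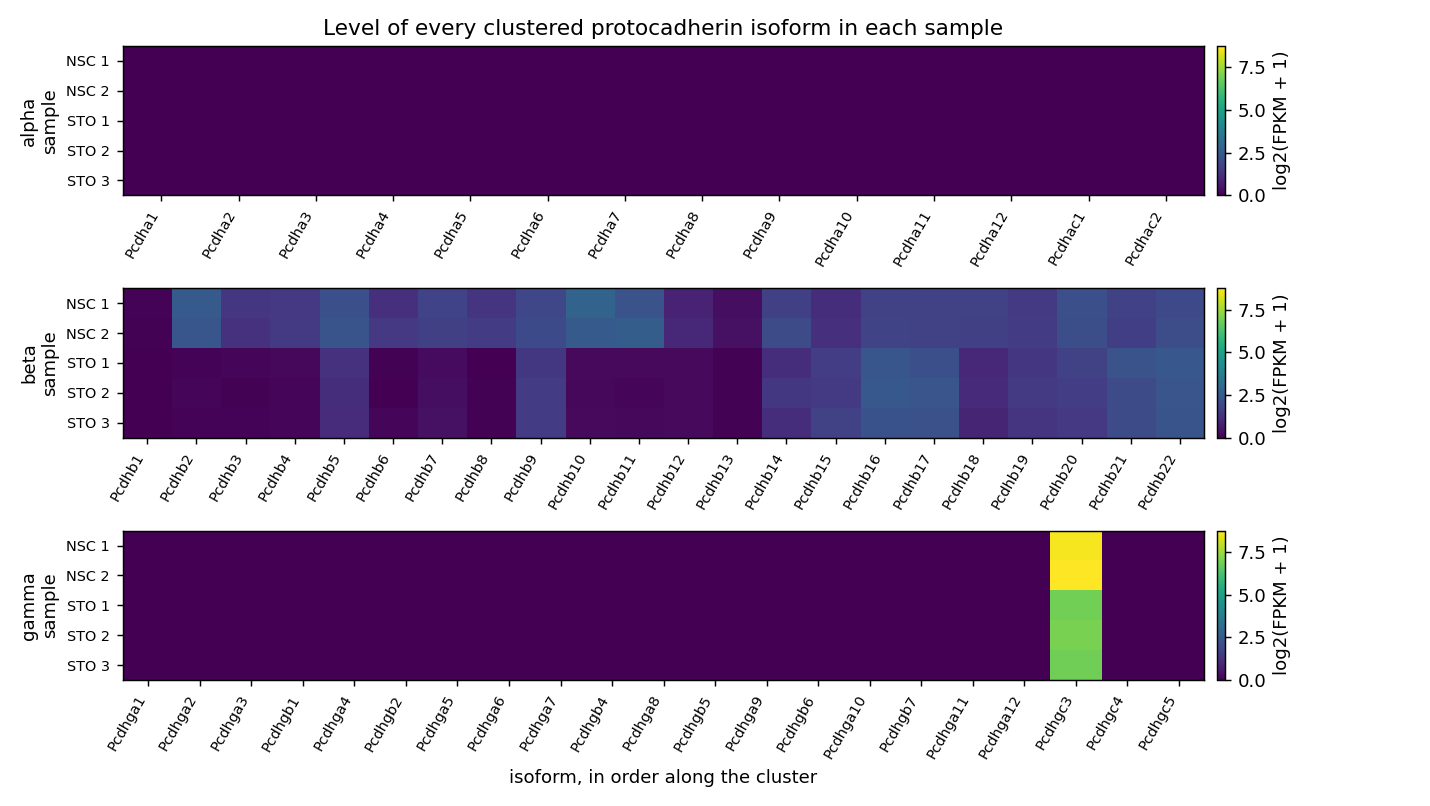
Heat map of log2(FPKM + 1) for every clustered protocadherin isoform (columns, in order along each cluster) in each of the 5 samples (rows). The alpha panel is at 0 throughout, the gamma panel is at 0 except for Pcdhgc3, and the beta panel holds values in both cell types.

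The gamma cluster was represented by 1 isoform, Pcdhgc3, a C-type member at chr18:37966064-38001526. Its FPKM was 395.2 and 429.5 in NSCs and 116.0, 125.3 and 114.6 in STO cells. All STO values lay below both NSC values. The mean was 412.3 ± 24.2 (SD, n = 2) in NSCs and 118.6 ± 5.82 (SD, n = 3) in STO cells, a 3.48-fold difference. On the log2(FPKM + 1) scale the difference of STO minus NSC was -1.79 with an SE of 0.070 (limma, adjusted p = 1.162e-06). By mean FPKM, Pcdhgc3 ranked 144 among 25415 genes in NSCs and 539 in STO cells. It held 100% of the gamma total in each sample and stood at 7.83 and 8.21 times the summed FPKM of all beta isoforms in NSCs and at 4.20, 4.53 and 4.44 times in STO cells.

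The deposited interval of Pcdhgc3 was wide for its level. Its transcript has 4687 bases in the mm9 annotation, of which 2568 are its own first exon and 2119, or 45.2%, are shared with other gamma isoforms. The interval implied 2260 and 2274 fragments in NSCs and 1968, 2031 and 2082 in STO cells. FPKM, length and the depth seen in the beta isoforms gave 57152 and 68451 fragments in NSCs and 12119, 15081 and 18344 in STO cells. The second estimate was 25.3 and 30.1 times the first in NSCs and 6.16, 7.43 and 8.81 times in STO cells. Among beta isoforms with at least 100 fragments the same measure was nearly constant within a sample, at 30.3 to 31.5 fragments per unit of FPKM and kilobase in NSC replicate 1 (17 isoforms). The part that fragments shared with isoforms listed at 0 play in the level of Pcdhgc3 was not tested, and its FPKM can only be read as the value assigned to this isoform.

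**Figure D2:**
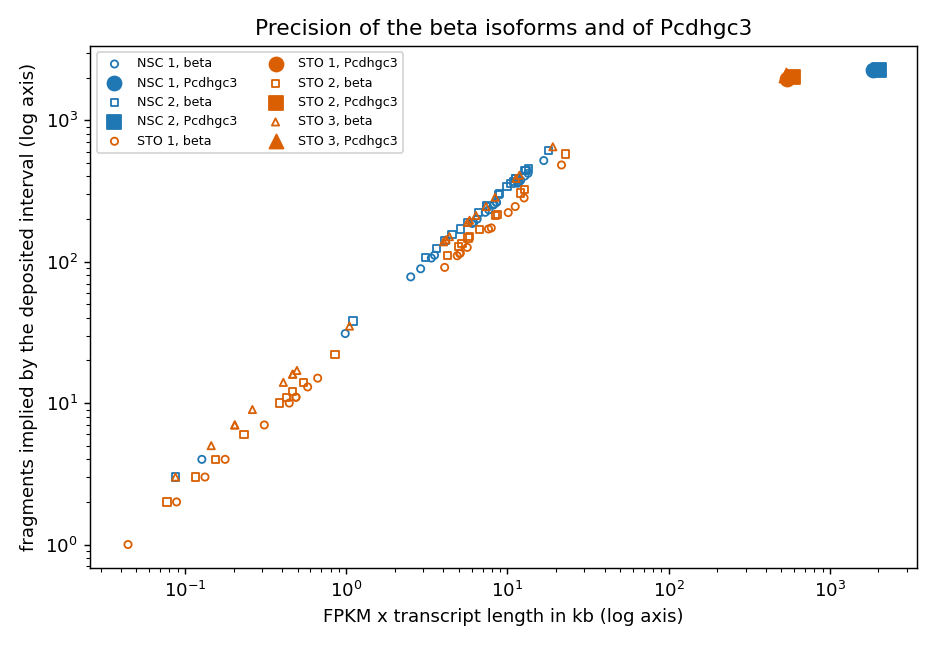
Fragments implied by the deposited confidence interval (vertical, log axis) against FPKM times transcript length in kb (horizontal, log axis), for beta isoforms above 0 (open) and Pcdhgc3 (filled), in NSCs (blue) and STO cells (orange). The beta isoforms lie along a line in each sample and the 5 Pcdhgc3 points fall below it, at 1968 to 2274 fragments.

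All 22 beta isoforms had an FPKM above 0 in at least 1 sample, at low levels. The isoform with the highest mean in NSCs, Pcdhb10, ranked 8586 among all genes there, and Pcdhb16, the highest in STO cells, ranked 9022. The summed FPKM of the cluster was 50.5 and 52.3 in NSCs and 27.6, 27.7 and 25.8 in STO cells. The means were 51.4 ± 1.34 (SD, n = 2) and 27.0 ± 1.04 (SD, n = 3), a 1.90-fold difference. A mean FPKM of at least 1 was reached by 19 beta isoforms in NSCs and by 10 in STO cells.

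Of the 57 members, 20 averaged 1 FPKM or more in either cell type and were tested. They were Pcdhgc3 and 19 beta isoforms, 9 of which, all beta, reached this level in NSCs alone and none in STO cells alone. Those 9 could enter the test only through the group in which they were high. At an adjusted p under 0.05, 14 members fell in STO cells (13 beta isoforms and Pcdhgc3), 5 beta isoforms rose and 1 was not called. Of all 12293 genes tested, 43.7% were called lower in STO cells and 41.9% higher, 85.6% in all. With a log2 difference of at least 1 in addition, 9 beta isoforms and Pcdhgc3 were lower and 0 members were higher, against 21.3% and 17.1% of all genes (38.4% in either direction).

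Without the filter on low values all 22 beta isoforms entered the test, of which 16 fell and 5 rose, against 37.0% and 33.4% of 17725 genes. Their median log2 difference was -0.66, and that of all genes was -0.0043. In 16 beta isoforms both NSC values lay above all 3 STO values, in 5 all 3 STO values lay above both NSC values, and in 1 the groups overlapped. Among the 17725 genes 41.1% and 37.3% were separated in these directions, and among the 12293 genes that passed the filter 46.0% and 43.9%. When the deposited intervals were compared in place of the values, 14 isoforms had both NSC intervals clear above all STO intervals, 3 (Pcdhb16, Pcdhb17 and Pcdhb21) had all STO intervals clear above both NSC intervals, and in 5 (Pcdhb1, Pcdhb14, Pcdhb15, Pcdhb19 and Pcdhb22) the intervals met.

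**Figure D3:**
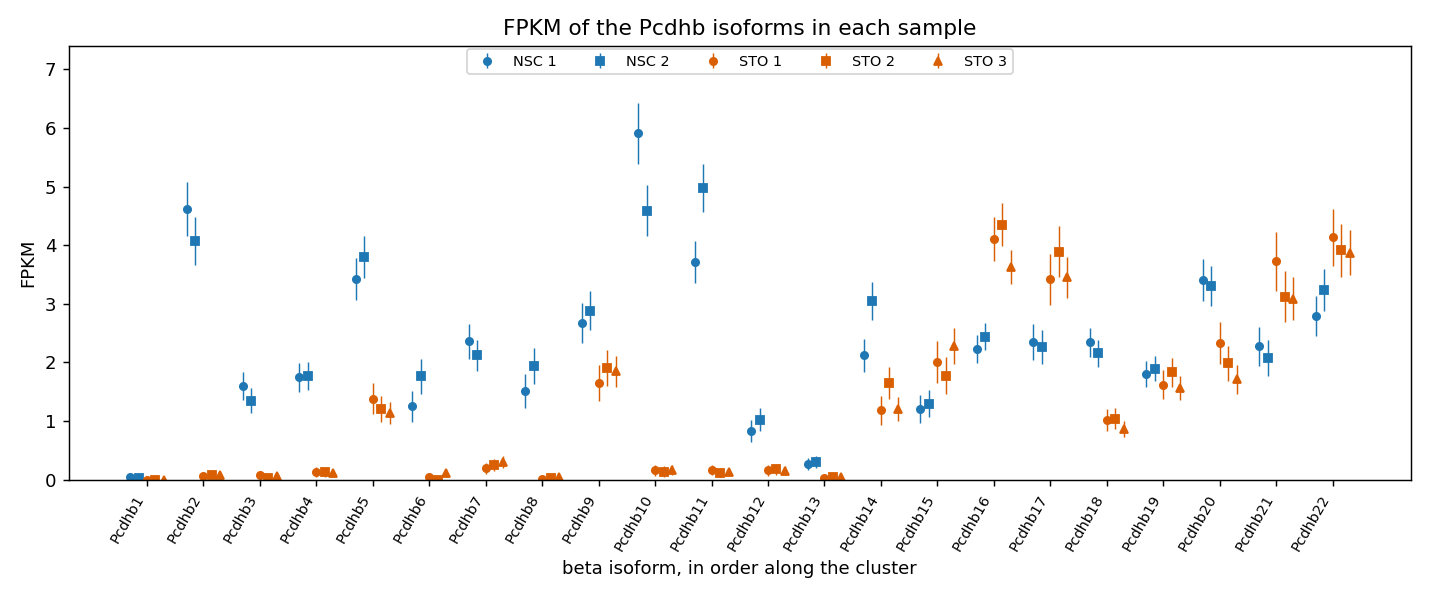
FPKM of the 22 beta isoforms in order along the cluster, for each NSC (blue) and STO (orange) sample, with the deposited confidence interval as the bar. From Pcdhb1 to Pcdhb13 the STO values lie below the NSC values, reaching 1.90 at Pcdhb9, and the 5 isoforms higher in STO cells (Pcdhb15, Pcdhb16, Pcdhb17, Pcdhb21 and Pcdhb22) lie in the later stretch.

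The isoforms with the highest means in NSCs were Pcdhb10, Pcdhb11 and Pcdhb2. Pcdhb10 had 5.91 and 4.59 FPKM in NSCs and 0.156, 0.136 and 0.164 in STO cells. The STO values lay far under the NSC values, by 34.5-fold in the means and by -2.43 on the log2(FPKM + 1) scale (SE 0.091, limma adjusted p = 9.436e-07), the largest fall of any beta isoform on this scale. They rested on 10, 10 and 16 fragments, against 518 and 442 in NSCs.

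Pcdhb2 had 4.62 and 4.07 FPKM in NSCs and 0.0639, 0.0836 and 0.0734 in STO cells. The difference in means was 59.0-fold, and -2.31 on the log2 scale (SE 0.057, limma adjusted p = 1.291e-07). Since 1 was added before the log was taken, the log2 difference understates the change of isoforms near 0. With 4, 6 and 7 fragments in STO cells against 403 and 389 in NSCs, the size of the ratio is imprecise.

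Pcdhb11, the neighbour of Pcdhb10 in the cluster, had 3.71 and 4.98 FPKM in NSCs and 0.159, 0.118 and 0.137 in STO cells. The groups were separated by 31.5-fold in the means and by -2.22 on the log2 scale (SE 0.10, limma adjusted p = 2.264e-06). Pcdhb10 was the highest beta isoform in NSC replicate 1 and Pcdhb11 in replicate 2.

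In STO cells the highest means were those of Pcdhb16, Pcdhb22 and Pcdhb17. Pcdhb16 had 2.23 and 2.44 FPKM in NSCs and 4.11, 4.35 and 3.63 in STO cells, where it rested on 482, 577 and 648 fragments. Every STO value exceeded both NSC values, by 1.73-fold in the means and by 0.59 on the log2 scale (SE 0.077, limma adjusted p = 0.0004329). This was the largest rise in the cluster.

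Pcdhb17 had 2.34 and 2.26 FPKM in NSCs and 3.42, 3.89 and 3.45 in STO cells. It rose 1.56-fold in the means and by 0.47 on the log2 scale (SE 0.064, limma adjusted p = 0.0005245). Pcdhb22, the last gene of the cluster, had 2.79 and 3.24 FPKM in NSCs and 4.13, 3.91 and 3.87 in STO cells. Its rise was smaller, 1.32-fold in the means and 0.31 on the log2 scale (limma adjusted p = 0.004752), and its deposited intervals met between the groups.

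The difference was arranged along the cluster. The cluster was divided between Pcdhb13 and Pcdhb14 after the values had been seen, so the division is a description and was not tested. In all 13 isoforms from Pcdhb1 to Pcdhb13 every STO value lay below every NSC value. In the 9 isoforms from Pcdhb14 to Pcdhb22 this held for 3 (Pcdhb14, Pcdhb18 and Pcdhb20), the reverse held for 5, and 1 overlapped. Pcdhb14 and Pcdhb15 lie 22.5 kb apart in a cluster of 256.4 kb, and the 5 higher isoforms begin at Pcdhb15.

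In summed FPKM, the first stretch gave 29.9 and 30.6 in NSCs and 4.07, 4.09 and 4.16 in STO cells. The means were 30.3 ± 0.48 (SD, n = 2) and 4.11 ± 0.048 (SD, n = 3), a 7.37-fold difference. The second stretch gave 20.5 and 21.7 in NSCs and 23.6, 23.6 and 21.7 in STO cells. Its means were 21.1 ± 0.86 (SD, n = 2) and 22.9 ± 1.09 (SD, n = 3), and the ranges of the groups overlapped. The first stretch thus held 59.3% and 58.5% of the beta total in NSCs and 14.7%, 14.8% and 16.1% in STO cells.

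Of the 13 isoforms of the first stretch, 10 had a mean of at least 1 FPKM in NSCs and 2 in STO cells. These 2 were Pcdhb5 and Pcdhb9, which were singled out after their values were seen. Pcdhb5 had 3.42 and 3.804 FPKM in NSCs and 1.38, 1.20 and 1.14 in STO cells, a fall of 1.04 on the log2 scale (limma adjusted p = 1.455e-05). Pcdhb9 had 2.68 and 2.88 FPKM in NSCs and 1.65, 1.90 and 1.85 in STO cells, a fall of 0.43 on the log2 scale (limma adjusted p = 0.0006168), the smallest among the tested isoforms of the stretch. Each of the other 11 stayed at or below 0.299 FPKM in every STO sample.

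The other tested isoforms of the first stretch were Pcdhb3, Pcdhb4, Pcdhb6, Pcdhb7 and Pcdhb8. Pcdhb7 had 2.36 and 2.12 FPKM in NSCs and 0.190, 0.243 and 0.299 in STO cells. Pcdhb8 had 1.51 and 1.94 in NSCs and 0.0189, 0.0331 and 0.0373 in STO cells, where the values rested on 1, 2 and 3 fragments. Pcdhb3, Pcdhb4 and Pcdhb6 had 1.25 to 1.77 FPKM in NSCs and 0 to 0.131 in STO cells, with the 0 in STO replicate 2 for Pcdhb6. The log2(FPKM + 1) differences of these 5 isoforms lay between -1.40 and -1.23, while their ratios of means ran from 9.19-fold in Pcdhb7 to 57.8-fold in Pcdhb8. Pcdhb12 and Pcdhb13 averaged under 1 FPKM in both cell types and were tested only without the filter. Pcdhb12 had 0.828 and 1.02 FPKM in NSCs and 0.161, 0.179 and 0.153 in STO cells (log2 difference -0.72, limma adjusted p = 7.247e-05). Pcdhb13 had 0.267 and 0.299 FPKM in NSCs and 0.0360, 0.0419 and 0.0394 in STO cells (log2 difference -0.30, limma adjusted p = 6.208e-05). Pcdhb1 was at the edge of detection, with 0.0518 and 0.0354 FPKM in NSCs from 4 and 3 fragments, and was listed at 0 in all 3 STO samples.

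In the second stretch all 9 isoforms had a mean of at least 1 FPKM in NSCs and 8 in STO cells. Pcdhb15 had 1.21 and 1.30 FPKM in NSCs and 2.01, 1.77 and 2.28 in STO cells (log2 difference 0.42, limma adjusted p = 0.002477). Pcdhb21 had 2.28 and 2.08 FPKM in NSCs and 3.73, 3.12 and 3.09 in STO cells (log2 difference 0.44, limma adjusted p = 0.002266). With these, every isoform from Pcdhb15 to Pcdhb17 and both last genes of the cluster were higher in STO cells. Pcdhb19 was the isoform whose groups overlapped, with 1.81 and 1.90 FPKM in NSCs and 1.62, 1.83 and 1.56 in STO cells (log2 difference -0.097, SE 0.060, limma adjusted p = 0.176). Its sign depended on the scaling: with values rescaled to the same total it was 0.018, and with quantile normalization 0.29 (limma adjusted p = 0.00506). Pcdhb18, between Pcdhb17 and Pcdhb19, had 2.34 and 2.15 FPKM in NSCs and 1.012, 1.04 and 0.866 in STO cells and fell by 0.72 on the log2 scale (limma adjusted p = 4.488e-05). Pcdhb20, at 3.41 and 3.31 FPKM in NSCs and 2.34, 1.98 and 1.71 in STO cells, fell by 0.54 (limma adjusted p = 0.001542). Pcdhb14, with 2.12 and 3.06 FPKM in NSCs and 1.19, 1.65 and 1.21 in STO cells, lost its call without NSC replicate 2, where its log2 difference was -0.41 (limma adjusted p = 0.0781), against -0.60 with all samples (limma adjusted p = 0.005998).

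**Figure D4:**
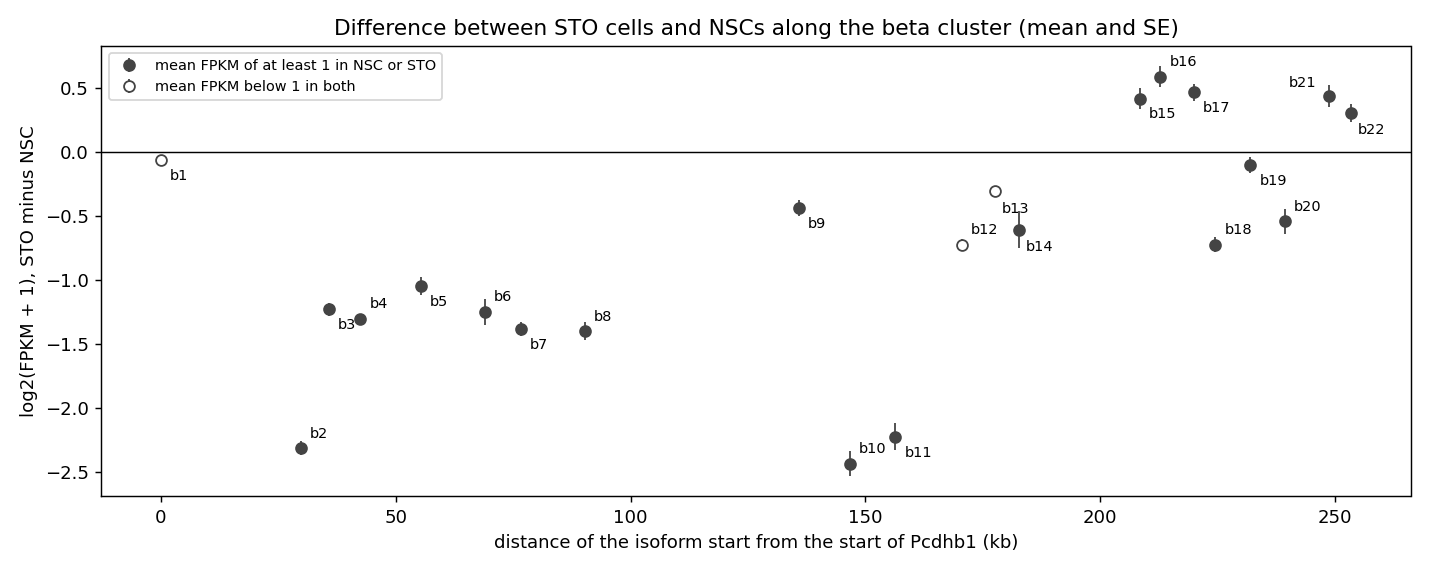
Difference in log2(FPKM + 1), STO minus NSC, with its SE, against the distance of each beta isoform's start from that of Pcdhb1 in kb; open points had a mean FPKM below 1 in both cell types. The points lie below 0 from Pcdhb1 to Pcdhb14, with the lowest at Pcdhb10 (-2.43), and 5 of the last 8 lie above 0, with the highest at Pcdhb16 (0.59).

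The order along the cluster and the log2 difference had a Spearman rho of 0.607 and a Pearson r of 0.603 over the 22 isoforms. The rho was 0.756 between the order and the level in STO cells and 0.154 between the order and the level in NSCs. These correlations run across neighbouring genes of the same libraries, which are not independent replicates, and are given as a description. Between samples, the profile over the 22 isoforms had a Pearson r of 0.964 between the NSCs and of 0.992 to 0.994 among the STO samples, against 0.249 to 0.281 between an NSC and an STO sample.

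The total was spread over more isoforms in NSCs. The effective number of beta isoforms, 1 divided by the sum of their squared shares, was 16.5 and 17.3 in NSCs and 9.67, 9.73 and 9.92 in STO cells. The largest single share was 11.7% in NSC replicate 1 (Pcdhb10) and 9.51% in replicate 2 (Pcdhb11). In STO cells it was 14.97%, 15.75% and 14.98%, from Pcdhb22, Pcdhb16 and Pcdhb22. In these bulk samples, fewer cells using an isoform and less RNA of it per cell cannot be told apart. Beta genes are also similar in sequence, and how fragments that match several of them were divided was not tested.

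**Figure D5:**
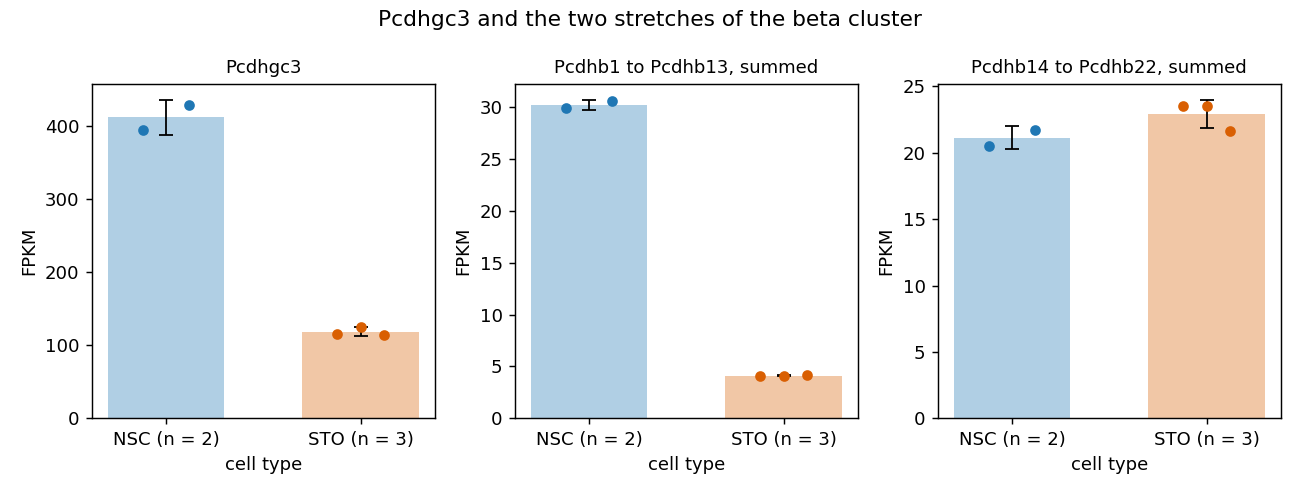
FPKM of Pcdhgc3, summed FPKM of Pcdhb1 to Pcdhb13 and summed FPKM of Pcdhb14 to Pcdhb22 in NSCs and STO cells; points are samples, bars are means and error bars are SDs. Pcdhgc3 (412.3 against 118.6) and the first stretch (30.3 against 4.11) are lower in STO cells, and the second stretch is close (21.1 against 22.9).

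Markers of differentiated neural cells also moved with the cell type. The 6 neuron markers summed to 119.5 FPKM in both NSC samples and to 12.3 to 12.9 in STO cells. Map2 gave 100.4 and 102.0 of the NSC sum, and Tubb3 was at 7.84 to 9.25 in all 5 samples. Rbfox3 and Snap25 were listed at 0 in all 3 STO samples. The 3 astrocyte markers, with Gfap at 15.9 and 16.9, summed to 23.5 and 25.6 FPKM in NSCs and to 0.0775 to 0.230 in STO cells. The 3 oligodendrocyte markers, with Mbp at 83.4 and 88.3, summed to 114.1 and 116.8 in NSCs and to 0.961 to 1.14 in STO cells. In STO cells 4 of 5 tested neuron markers were called lower, as were 3 of 3 astrocyte and 2 of 2 oligodendrocyte markers. Their part in the protocadherin differences was not tested.

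Genes known to act on the clusters were measured in both cell types. Of 18 regulators listed, 17 were tested, of which 13 rose and 1 fell in STO cells, against 41.9% and 43.7% of all genes tested, with a median log2 difference of 0.41 against -0.023. Most of these changes were under 1 on the log2 scale. Smc3, a core subunit of cohesin, had 25.8 and 28.6 FPKM in NSCs and 58.4, 61.4 and 63.5 in STO cells (log2 difference 1.14, limma adjusted p = 8.499e-06). Pds5a, a cohesin-associated regulator, had 12.8 and 12.2 FPKM in NSCs and 52.5, 55.4 and 53.8 in STO cells (log2 difference 2.03, limma adjusted p = 1.652e-07). The one that fell was Dnmt3a, a de novo DNA methyltransferase, from 19.2 FPKM in each NSC sample to 5.88, 6.18 and 5.73 in STO cells (log2 difference -1.55, limma adjusted p = 6.68e-07). Dnmt3b, also named after its values were seen, averaged under 1 FPKM in both cell types and was not tested. It had 0.497 and 0.464 FPKM in NSCs and 0.806, 0.801 and 0.882 in STO cells. Ctcf, named after its values were seen, had 37.4 and 40.5 FPKM in NSCs and 39.1, 40.2 and 42.4 in STO cells. Its groups overlapped and it was not called (limma adjusted p = 0.41).

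Of 18 genes for protein partners and processing, 16 were tested, of which 9 fell and 5 rose in STO cells, with a median log2 difference of -0.20. All genes tested gave 43.7% lower and 41.9% higher, and with values rescaled to the same total 7 partners were lower and 7 higher. Past a log2 difference of 1, 7 were lower and 2 higher, against 21.3% and 17.1% of all genes tested. The lower genes included the tyrosine kinases Fyn and Ptk2b. Among them, Cyfip2 and Nlgn1 passed the filter through NSCs alone, the group in which they were high. The tyrosine kinase Ptk2 was not called (log2 difference 0.074, limma adjusted p = 0.233). Of the genes of the WAVE actin-regulating complex in the list, Cyfip2, Wasf1 and Abi2 fell, Abi1, Cyfip1 and Nckap1 rose, and Wasf2 was not called (log2 difference 0.071, limma adjusted p = 0.384). Fyn had 227.8 and 251.2 FPKM in NSCs and 15.9, 16.1 and 15.9 in STO cells (log2 difference -3.83, limma adjusted p = 1.741e-08). Cyfip2 had 18.3 and 17.7 FPKM in NSCs and 0.369 to 0.416 in STO cells (log2 difference -3.77, limma adjusted p = 1.028e-08). The log2 differences of Wasf1, Abi2 and Ptk2b were -2.45, -1.91 and -1.84. Those of Nlgn1, a postsynaptic adhesion protein, and Marcks, a protein kinase C substrate, were -2.21 and -1.07. Abi1, and Axin1, a scaffold of the Wnt pathway, were higher in STO cells by 1.02 and 1.502. Cyfip1, Nckap1 and Pdcd10 rose by 0.36, 0.24 and 0.29.

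The protocadherins encoded outside the clusters are single genes, without a set of alternative first exons of this kind. Of 12 listed, 9 were tested, and all 9 were called with a log2 difference of at least 1, 6 lower and 3 higher in STO cells, against 21.3% and 17.1% of all genes. Pcdh10, Pcdh11x, Pcdh15 and Pcdh17 passed the filter through NSCs alone, and Pcdh18 through STO cells alone. These could enter the test only through the group in which they were high. Pcdh10 had 53.0 and 52.8 FPKM in NSCs and 0.0423, 0.0340 and 0.0294 in STO cells (log2 difference -5.70, limma adjusted p = 5.092e-09). Pcdh7 moved the other way, from 8.68 and 8.88 FPKM in NSCs to 83.0, 88.3 and 83.6 in STO cells (log2 difference 3.14, limma adjusted p = 2.391e-08). Pcdh18 was at 0.886 and 0.949 FPKM in NSCs and at 23.19 to 23.99 in STO cells, a log2 difference of 3.67. The third higher gene was Pcdh19, with a log2 difference of 1.85. Pcdh1, Pcdh9, Pcdh11x, Pcdh15 and Pcdh17 were lower, with log2 differences of -1.37, -1.95, -2.77, -3.26 and -2.49, and Pcdh11x was listed at 0 in all 3 STO samples. The largest rise among these genes thus exceeded any in the beta cluster, where the highest was 0.59.

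Genes beside or between the clusters were measured for comparison. Of 8 listed, 6 were tested, of which 3 fell and 1 rose in STO cells, against 43.7% and 41.9% of all genes, with a median log2 difference of -0.25. Without the filter, with rescaled values, with quantile normalization or with any 1 sample left out, 2 of them fell. Zmat2, beside the alpha cluster, had 59.6 and 47.5 FPKM in NSCs and 20.7, 23.0 and 24.6 in STO cells (log2 difference -1.19, limma adjusted p = 9.599e-05). Hars2, a mitochondrial histidyl-tRNA synthetase, and Diaph1, a formin, were the other called genes on either side, with log2 differences of -0.48 and 0.58. Taf7, a subunit of the transcription factor TFIID encoded between the beta and gamma clusters, had 2.55 and 3.95 FPKM in NSCs and 2.28, 2.07 and 2.19 in STO cells. Its fall of 0.40 on the log2 scale was smaller than that of Zmat2, with a limma adjusted p of 0.0318.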

How the data were processed

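Stranded mRNA libraries were read as paired ends. The authors aligned the trimmed reads to mm9 with HISAT2 and deposited FPKM values with confidence bounds, made with Cufflinks 2.2.1 on RefSeq transcripts from UCSC, per the submitters' processing notes and the methods. Symbols were matched by RefSeq identifier for 99.4% of 40201 transcripts, and transcripts of 1 symbol with overlapping loci were summed to 25415 genes.

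Log2(FPKM + 1) of the 12293 genes averaging 1 FPKM or more in either cell type was fitted with limma 3.58.1 in R 4.3.3 (eBayes with a trend, two-sided), with cell type as the only term and Benjamini-Hochberg adjustment over all genes tested, at a threshold of 0.05. The fit was tested on simulated data. Fragments behind a value were taken from the upper bound, read as 2 SDs of a counting error. They cover counting error only.

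Named in full were the C-type isoforms, the 3 highest isoforms per cluster and cell type, the 2 largest rises and falls per cluster, and listed genes past the threshold with a log2 difference of at least 1. The members and lists were chosen with earlier results of these data known. Pseudocount, filter, scaling, trend, transcript summing, a replicate block and leaving out each replicate were varied. 1 marker gene is not reported here.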

Additional observations from a re-analysis of the deposited data

How the results depend on the processing

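Of 276 single-member log2 differences under an alternative, over the 20 members tested, 272 kept their direction and their side of the threshold. Pcdhb19 turned to 0.018 (adjusted p = 0.85) with values rescaled to the same total in each sample and to 0.29 (adjusted p = 0.00506) with quantile normalization, and Pcdhb14 was not called with quantile normalization (-0.28, adjusted p = 0.124) or without NSC replicate 2 (-0.41, adjusted p = 0.0781). The cause was not tested. The rescaling moved the median log2 difference of all genes tested from -0.023 to 0.12. Requiring a log2 difference of at least 1 left 0 of 5 members higher, 2 of 13 regulators and 2 of 5 protein partners higher, and 0 of 1 neighbouring genes higher and 1 of 3 lower, since fewer genes pass both criteria. Members called lower numbered 10 to 17 over all alternatives, 17 without the filter. Leaving out 1 sample at a time gave 13 to 15 members lower and 5 higher, 11 to 13 regulators higher, 8 to 9 partners lower and 4 to 5 higher, and 2 neighbouring genes lower; a lone NSC sample was then assumed to vary like the STO samples.

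The log2 ratio of the beta total, -0.93, became -0.75 with the rescaling, -1.06 with upper quartile scaling and -1.07 without its largest isoform, and stayed at -0.95 to -0.90 with 1 sample left out. That of the gamma total, -1.80, became -1.62 and -1.93 under the same scalings and was -1.86 to -1.74 with 1 sample left out; without Pcdhgc3 it has no value. The alpha total, at 0 throughout, gives no ratio. Isoforms of status OK were all isoforms. The lists were not rerun for transcripts taken singly.

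With the replicate number as a block, 5 members were higher and 14 lower, as without it, and 4994 and 5250 of all genes. Deviations of same-numbered samples had correlations of 0.0075 and 0.061, and those of different-numbered samples ran from -0.061 to 0.050. With n = 2 in NSCs the deviations of the NSC samples mirror each other, so these values cannot show whether samples were paired. The samples were not treated as pairs. Depth limits the isoforms near 0 most: for the 11 isoforms of Pcdhb1 to Pcdhb13 that stayed at or below 0.299 FPKM, single STO values rested on at most 35 fragments.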
